A study of Mus musculus with 92 samples.

Results

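The genes described here encode the subunits of the oxidative phosphorylation system that are made from nuclear DNA, measured by RNA sequencing of fasted mouse liver. They were chosen by gene symbol in the authors' deposited comparison tables (the Nduf, Sdh, Uqcr, Cyc1, Cox4 to Cox8 and Atp5 series, without pseudogene names), which gave 81 of 17926 genes. By symbol 38 of them fall in complex I, 4 in complex II, 9 in complex III, 13 in complex IV and 17 in complex V. Counts were usable for 73 of the 81, in female livers, and all 73 passed the filter on low counts. The other 8 (Cox5b, Atp5g2, Uqcrh, Ndufb6, Atp5md, Cox7a1, Ndufb4c and Ndufb1) are described from the authors' deposited tables alone. A few symbols do not name a subunit of the enzyme that their letters point to: Cox7a2l takes part in joining respiratory complexes to each other, and Ndufa4 has been reassigned from complex I to complex IV.

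The animals were HET3 mice, a genetically heterogeneous stock bred from several inbred strains, so that each animal carries its own mixture of alleles. Males and females received a Low Isoleucine, a Low Amino Acid or a Control diet and were killed at 24 or at 6 months after a fast of 16 h, which gave 92 libraries in 12 groups. The female groups used here held 8 livers on Low Isoleucine, 7 on Low Amino Acid and 8 on Control at 24 months, and 7 on Low Isoleucine, 8 on Low Amino Acid and 8 on Control at 6 months. Per the labels, the diets of the mice killed at 24 months began at 6 months of age and those of the mice killed at 6 months at 9 weeks of age, while the series text gives 13 weeks on the diet. Age, age at the start and time on the diet therefore cannot be told apart in the age comparisons. The titles carry a number with a letter after it, and 19 of the 46 female libraries share their number with another library of their group, 5 of the 8 among the 6-month Controls. The labels do not say what the number stands for. If such mice share a cage or litter, the livers are not all independent and the p-values may be too small.

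Oxidative phosphorylation takes place in the inner mitochondrial membrane. Complex I (NADH dehydrogenase) and complex II (succinate dehydrogenase, which is also an enzyme of the citric acid cycle) pass electrons to ubiquinone, complex III passes them on to cytochrome c and complex IV to oxygen, and complex V (ATP synthase) uses the resulting proton gradient to make ATP. All of these but complex II also hold subunits encoded in the mitochondrial genome, which are not analysed here. In the fasted liver this system oxidises the products of fatty acid breakdown and pays for the synthesis of glucose.

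Total estimated counts ranged from 7820000 (replicate 5 of the 24-month Low Isoleucine group) to 27557000 per library, rounded, with a median of 22578000 and a next lowest total of 14287000. Some libraries stood apart. Replicate 6 of the 24-month Control group held the highest value of its group for 73 of the 73 members, and its mean over the members was 6.99 log2 CPM (CPM, counts scaled to library size) against 5.73 to 6.44 in the other 7 livers of that group. The same library had the highest mean of cytosolic ribosomal protein genes in its group, 7.31 log2 CPM, and the lowest mean of acute phase genes, 8.36 log2 CPM, and the part of either in the members' values was not tested. Replicate 5 of the 24-month Low Isoleucine group, the shallowest library, held the lowest value for 65 of the 73 members, and replicate 8 of the 6-month Low Isoleucine group held it for 37. That replicate 5 also had its group's highest mean of acute phase genes (10.03 log2 CPM), neutrophil markers (2.97) and Kupffer cell markers (6.81). Its mean of cytosolic ribosomal protein genes, 6.03 log2 CPM, was the lowest of the group. The part of depth or of these genes in its values was not tested. One library labelled female on Low Isoleucine at 6 months was left out because Kdm5d, a gene of the Y chromosome, stood at 50.8 CPM in it and at 0.639 CPM or below in the others. Hepatocyte markers made up a median summed level of 117200 to 153200 CPM in the 6 groups, whereas Ucp1, a marker of brown fat, was at 0.0986 CPM or below in every library and the summed striated muscle markers at 1.22 CPM or below.

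In bulk tissue, fewer hepatocytes and less RNA of a gene per hepatocyte cannot be told apart, and this holds for all levels given here. The members together took a small share of the estimated counts. At 24 months the median share was 0.843% on Low Isoleucine, 0.808% on Low Amino Acid and 0.76% on Control, and at 6 months 0.918% on Low Isoleucine, 0.875% on Low Amino Acid and 0.911% on Control. The aged Control livers spread most, from 0.577 to 1.27%, whereas the young Control livers lay between 0.901 and 0.972%. Per length of exon the most abundant members were Atp5a1 and Atp5b, of the catalytic part of ATP synthase. Their means were 291.2 and 249.8 RPKM (counts scaled to library size and exon length) over the 46 female libraries. Cox4i1, the common form of a regulatory subunit of complex IV, followed at 199.2 RPKM, Cox6b1 at 181.2 RPKM and Sdhd, a membrane anchor of complex II, at 150.8 RPKM. The median level per complex was 33.1 RPKM in complex I, 75.0 in complex II, 85.6 in complex III, 88.0 in complex IV and 62.7 in complex V. Members were shorter than most genes, with a median exon length of 1756 bases against 4487 over all genes tested.

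Several subunits of complex IV exist as pairs of a common form and a form known from muscle, lung or testis. Among the forms with usable counts, the liver libraries held almost only the common ones. Cox7a1, the partner form of Cox7a2, had no usable counts and is not covered. Cox8c had no count in any of the 46 libraries, Cox7b2 none in 44, Cox6a2 none in 29 and Cox8b none in 28. Cox4i2, a form known from lung, had a median of 0.104 CPM, and Ndufa4l2, a paralogue of Ndufa4 known to be induced by low oxygen, 0.374 CPM. Cox6b2, known from testis, was the exception. Its level ran from 0.172 to 10.99 CPM between single livers, and each of the 6 groups held livers below 1 and livers above 4 CPM, so that the spread lay within the groups. Its fitted differences therefore had wide errors, for example -0.93 on the log2 scale (95% interval -2.51 to 0.66) between 24 and 6 months in Control females.

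Across the 46 livers the members moved together. The correlation of each member's log2 CPM with the mean of the other members had a median of 0.849 over 73 members and exceeded 0.8 for 48 of them. It was highest for Atp5o, in the stalk of ATP synthase, at 0.945, and lowest for Ndufa8 at 0.249, Uqcrq at 0.328 and Cox6b2 at 0.329. These values are a description of genes that share libraries and depth. The genes outside the list whose levels followed the members' mean most closely were Acaa2, a thiolase of mitochondrial fatty acid oxidation (r = 0.908, 46 libraries), Micos13, of the complex that shapes the cristae (r = 0.895), the mitochondrial ribosomal protein genes Mrpl30 (r = 0.893) and Mrps16 (r = 0.878), and Slc25a5, an ADP and ATP carrier of the inner membrane (r = 0.867).

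**Figure D1:**
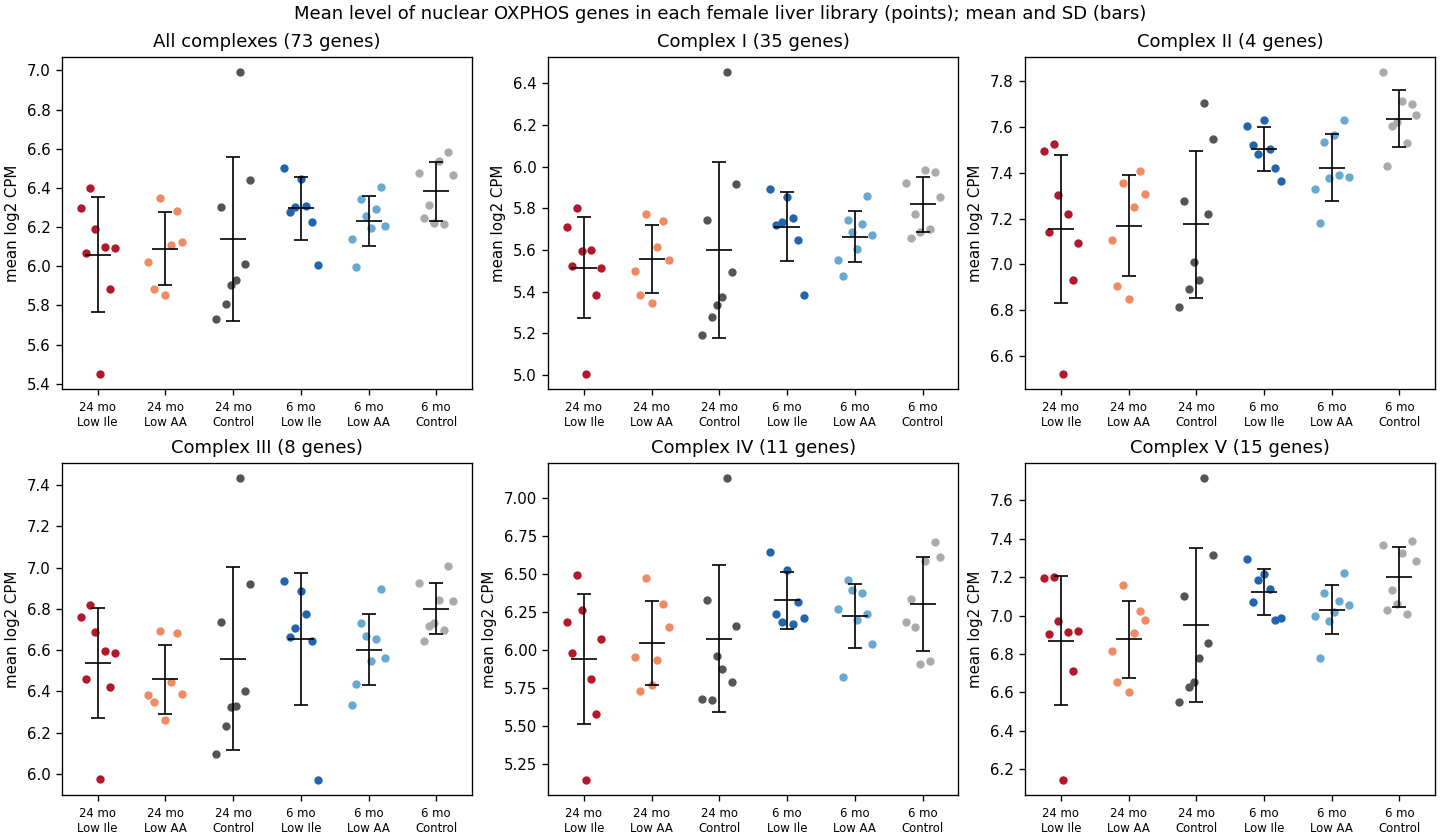
Mean log2 CPM of the nuclear oxidative phosphorylation genes in each female liver library, for all 73 genes and for each complex; points are libraries, bars the mean and SD, and the groups run from 24-month Low Isoleucine at the left to 6-month Control at the right. Replicate 6 of the 24-month Control group stands at the top of its group in every panel (6.99 over all complexes), and in Control livers complex II is the panel in which 24 and 6 months lie furthest apart, with means of 7.18 and 7.63.

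The first question is whether these genes differed between either restricted diet and the Control diet. At 6 months no member passed the test used, edgeR's quasi-likelihood test with Benjamini-Hochberg adjustment over all 12617 genes tested and a call at an adjusted p under 0.05. On Low Amino Acid 0 of 73 members were called, where 0% of all genes were called, and on Low Isoleucine 0 of 73, where 0.0238% of all genes were called. Without adjustment, 1 member was higher and 11 lower at p under 0.05 with Low Amino Acid, and 1 was higher and 3 lower with Low Isoleucine. Of all 12617 genes, 1023 and 1271 had such a p on these diets, in either direction. The median fold change of the members was -0.18 on the log2 scale for Low Amino Acid, against 0.00 over all genes, and -0.07 for Low Isoleucine, against -0.01. Estimates lay below 0 for 68 of the 73 members in Low Amino Acid livers and for 57 in those on Low Isoleucine. Both comparisons share the 8 Control livers.

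In complex II, Sdha, the subunit that holds the succinate site, had 378.1, 421.1 and 509.5 CPM as the lowest, median and highest value on Low Amino Acid and 464.8, 478.1 and 518.2 CPM on Low Isoleucine, against 429.1, 488.0 and 615.8 CPM on Control. All 3 groups overlapped. Its log2 difference from Control was -0.25 (95% interval -0.47 to -0.03, adjusted p = 0.577 by edgeR's quasi-likelihood test) on Low Amino Acid and -0.07 (-0.30 to 0.16, adjusted p = 0.91) on Low Isoleucine. Ndufa8, an accessory subunit of complex I on its intermembrane side, was the member furthest above 0 in both comparisons. It had 49.2, 53.6 and 62.3 CPM on Low Amino Acid and 48.3, 55.6 and 58.7 CPM on Low Isoleucine, against 30.1, 46.6 and 57.1 CPM on Control, where 2 of the 8 livers lay near 30 CPM. The difference was 0.27 ± 0.12 (SE) for Low Amino Acid and 0.24 ± 0.12 for Low Isoleucine, with adjusted p = 0.561 and 0.49 by edgeR's quasi-likelihood test.

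The abundant subunits Atp5b and Cox4i1 had intervals on both sides of 0 at 6 months. Atp5b differed from Control by -0.08 (95% interval -0.33 to 0.16) on Low Amino Acid and by 0.04 (-0.22 to 0.29) on Low Isoleucine, and Cox4i1 by -0.09 (-0.38 to 0.20) and -0.03 (-0.33 to 0.27) on the same diets. Leaving aside Cox6b2, no member's 95% interval reached below -0.80 (Cox7b, a small subunit of complex IV) or above 0.49 (Ndufa8) on Low Amino Acid, and the limits on Low Isoleucine were -0.75 (Atp5k, a small membrane subunit of complex V) and 0.52 (Uqcrb, a small subunit of complex III). Differences past those sizes lie outside every interval.

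At 24 months the diets again gave no call. On Low Amino Acid 0 of 73 members were called, where 0.745% of all genes were called, and on Low Isoleucine 0 of 73, where 6.48% of all genes were called. Without adjustment, 0 were higher and 4 lower under Low Amino Acid, while 0 were higher and 6 lower under Low Isoleucine. Over all 12617 genes, 2137 and 2820 had an unadjusted p under 0.05 on these diets, in either direction. The median of the members was -0.09 on Low Amino Acid against -0.03 over all genes, and -0.10 on Low Isoleucine against -0.02 over all genes. Without replicate 6 of the Control group both medians turned, to 0.04 on the Low Amino Acid diet and to 0.045 for Low Isoleucine livers, so their direction rests on that library.

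The member closest to a call was Ndufs8, a core subunit of complex I that carries iron-sulfur clusters on the path to ubiquinone. It had 27.8, 29.7 and 31.6 CPM on Low Isoleucine at 24 months, against 29.1, 34.7 and 62.8 CPM on Control, so the groups overlapped at their lower ends and the Control livers spread far more. The log2 difference was -0.38 ± 0.13 (SE), with adjusted p = 0.0688 by edgeR's quasi-likelihood test and 0.0454 by DESeq2. Ndufa2, an accessory subunit beside the NADH-binding arm, lay at -0.39 on Low Isoleucine at either age (adjusted p = 0.128 at 24 months and 0.399 at 6 months by edgeR's quasi-likelihood test). The Low Amino Acid livers gave -0.39 at 24 months (adjusted p = 0.227) and -0.35 at 6 months (adjusted p = 0.579). Diets of 1 age share the Control livers. Other members at the low end at 24 months were Atp5k at -0.46 on Low Isoleucine (adjusted p = 0.132) and Uqcr11, a small subunit of complex III, at -0.45 for Low Amino Acid (adjusted p = 0.264). Atp5k had a median of 37.15 CPM on Low Isoleucine against 41.72 CPM on Control, where the highest liver had 104.8 CPM. Uqcr11 had 58.87 CPM on Low Amino Acid against 65.15 CPM on Control, where the highest had 174.7 CPM. For all members named here the highest Control liver was replicate 6.

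By complex, the 24-month medians on Low Isoleucine were -0.14 for complex I, 0.01 for complex II, -0.05 for complex III, -0.16 for complex IV and -0.09 for complex V. Without replicate 6 of the Control group they were 0.02, 0.12, 0.12, 0.00 and 0.06 for complexes I to V, so the negative ones turned. With all libraries, the 7 core subunits of complex I, which carry out its electron transfer, had a median of -0.03 and the 28 accessory ones of -0.15, with no call in either. Sdha and Sdhd lay close to Control at 24 months, with differences of 0.06 (95% interval -0.16 to 0.28) and 0.04 (-0.24 to 0.32) on Low Isoleucine.

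**Figure D2:**
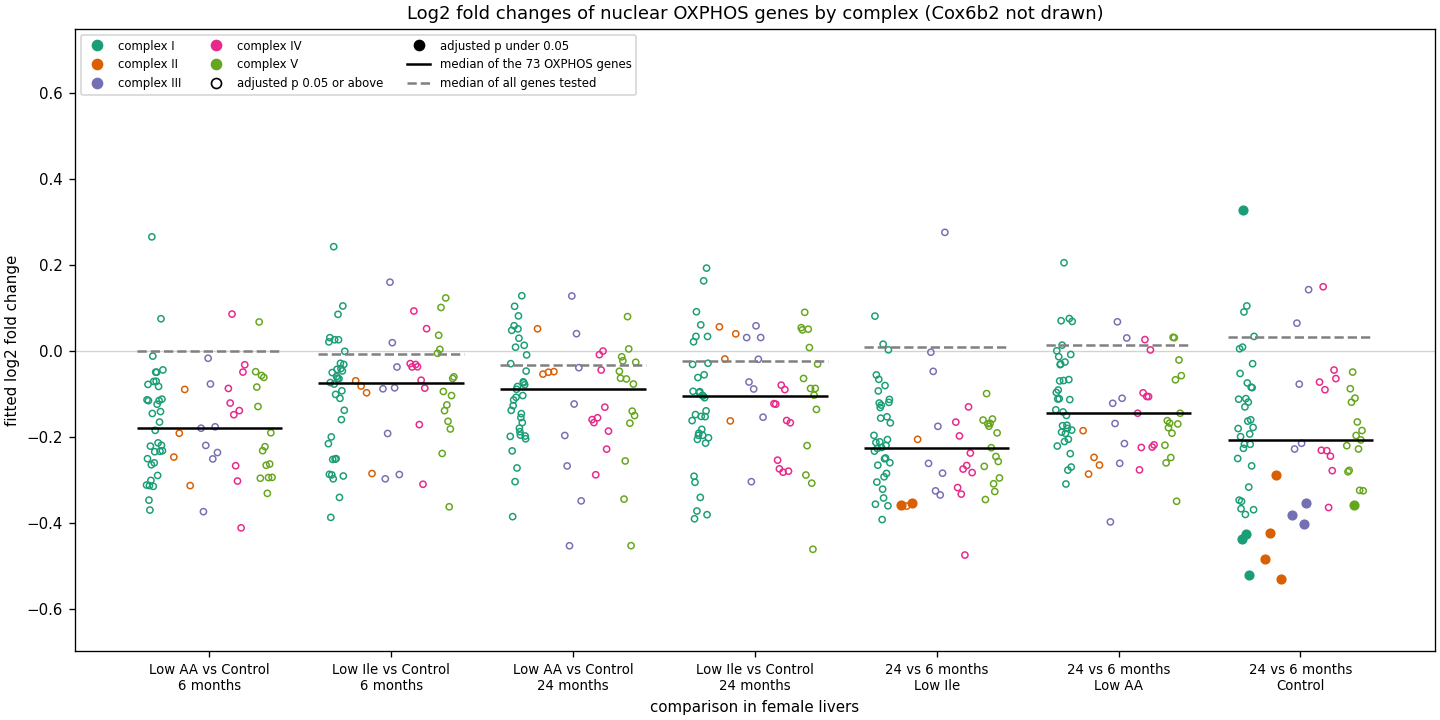
Fitted log2 fold changes of 72 nuclear oxidative phosphorylation genes in 7 comparisons of female livers, coloured by complex; filled points have an adjusted p under 0.05 by edgeR's quasi-likelihood test, solid lines are the median of the 73 genes and dashed lines that of all genes tested. Filled points appear only in the comparisons of 24 with 6 months, 2 of them on Low Isoleucine and 12 on Control, and all 4 genes of complex II are filled on Control.

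The 2 restricted diets were also set against each other. Low Isoleucine against Low Amino Acid gave 0 of 73 calls at 6 months, where 0.0159% of all genes were called, and 0 of 73 at 24 months, where 1.25% were called. The members' median was 0.08 at 6 months, with 59 of 73 estimates above 0, and 0.00 at 24 months, and the median of all genes was 0.00 and 0.015 at those ages. The largest single difference at 24 months was that of Ndufb4, an accessory subunit in the membrane arm of complex I, at -0.42 (adjusted p = 0.225 by edgeR's quasi-likelihood test). Whether a diet's effect differed between the ages was tested as an interaction. For Low Amino Acid it gave 0 of 73 calls, where 0% of all genes were called, and for Low Isoleucine 0 of 73, where 0% were called. Without adjustment these interactions gave 0 members for Low Amino Acid and 1 for Low Isoleucine, Ndufa8, at -0.45 (95% interval -0.77 to -0.12). Over all 12617 genes they gave 1298 and 1072.

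The calls came from the comparisons of 24 with 6 months, in which age, age at the start and time on the diet move together. In Control females killed at 24 months, 11 of 73 members fell against those killed at 6 months and 1 was higher, where 11.4% of all genes tested were lower and 16.7% higher. The count of 11 of 73 is not far from that background. It depended on single livers: without replicate 6 of the aged group 43 fell, where 13.7% of all genes were lower. Without replicate 1 or without replicate 3 of that group 5 members passed the test, and the share over all genes is not given for those fits. By complex, all 4 genes of complex II fell, against 3 of 35 in complex I, 3 of 8 in complex III, 0 of 11 in complex IV and 1 of 15 in complex V. The median fold change was -0.45 for complex II, -0.18 for complex I, -0.22 for complex III, -0.23 for complex IV and -0.21 for complex V, and 0.03 over all genes. Over the members as a whole the median was -0.21, with 64 of 73 estimates below 0, where 45.8% of all genes lay below 0.

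Sdha, at chr13:74322254-74350280 (GRCm38), had 256.3, 349.5 and 486.9 CPM in 24-month Control livers and 429.1, 488.0 and 615.8 CPM in 6-month Control livers. In all, 6 of the 8 aged livers lay below the lowest young one. The log2 difference was -0.48 ± 0.11 (SE), with adjusted p = 0.00163 by edgeR's quasi-likelihood test. Sdhd, at chr9:50596357-50603812, had 120.8, 160.2 and 216.9 CPM at 24 months against 208.5, 233.3 and 274.1 CPM at 6 months, and the ranges met only through the 2 highest aged livers. Its difference was -0.53 ± 0.14 (adjusted p = 0.00502). Sdhb, the iron-sulfur subunit, at chr4:140961203-140979193, had 63.9, 86.0 and 157.8 CPM at 24 months against 101.0, 129.5 and 148.9 CPM at 6 months, with replicate 6 of the aged group above every young liver, and differed by -0.42 ± 0.15 (adjusted p = 0.0302). Sdhc, the other membrane anchor, at chr1:171127165-171150603, had 68.1, 83.3 and 112.9 CPM at 24 months against 91.0, 102.9 and 129.3 CPM at 6 months and differed by -0.29 ± 0.10 (adjusted p = 0.0241).

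Promoter sequences are shown for 3 of the complex II genes that fell with age and for Ndufa8, the member that was higher. Each is the 250 bases before the RefSeq start of the gene in GRCm38.p6, read along the strand of the gene from 5′ to 3′. Capitals mark GCGC, any 2 bases and GCGC again, a core of the site bound by NRF1, searched on both strands, which coincide for these letters. Sdha lies at chr13:74350241-74350490 on the minus strand, Sdhb at chr4:140961021-140961270 on the plus strand, Sdhd at chr9:50603850-50604099 on the minus strand and Ndufa8 at chr2:36049339-36049588 on the minus strand.
Sdha: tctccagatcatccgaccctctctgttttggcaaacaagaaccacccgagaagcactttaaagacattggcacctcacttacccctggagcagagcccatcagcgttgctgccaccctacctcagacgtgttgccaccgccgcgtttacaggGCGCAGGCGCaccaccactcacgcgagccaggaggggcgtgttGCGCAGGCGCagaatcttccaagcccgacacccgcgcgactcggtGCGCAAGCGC
Sdhb: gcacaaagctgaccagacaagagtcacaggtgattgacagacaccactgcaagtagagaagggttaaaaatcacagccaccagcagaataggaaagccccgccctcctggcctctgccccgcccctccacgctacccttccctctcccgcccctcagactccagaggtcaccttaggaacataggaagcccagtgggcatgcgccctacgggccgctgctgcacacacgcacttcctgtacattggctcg
Sdhd: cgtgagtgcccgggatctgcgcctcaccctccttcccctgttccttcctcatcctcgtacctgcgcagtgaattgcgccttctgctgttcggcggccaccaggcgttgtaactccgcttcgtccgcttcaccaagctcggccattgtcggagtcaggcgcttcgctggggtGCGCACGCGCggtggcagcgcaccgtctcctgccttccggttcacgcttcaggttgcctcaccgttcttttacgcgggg
Ndufa8: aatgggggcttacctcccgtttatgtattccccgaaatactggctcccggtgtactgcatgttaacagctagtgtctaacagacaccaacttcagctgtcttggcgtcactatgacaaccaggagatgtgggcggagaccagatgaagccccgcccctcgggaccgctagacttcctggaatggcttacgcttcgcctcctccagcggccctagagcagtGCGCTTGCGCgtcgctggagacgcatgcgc
The Sdha window holds 3 matches, which begin 98, 55 and 10 bases before the start. The Sdhd window holds 1, 79 bases before it, the Ndufa8 window 1, 30 bases before it, and the Sdhb window holds none. Of the 67 members with a promoter entry 14 (20.9%) hold these letters, against 5.64% of the 27025 genes of the table. By complex they are in 7 of 33 members of complex I, 2 of 3 of complex II, 0 of 5 of complex III, 1 of 11 of complex IV and 4 of 15 of complex V, and in 2 of the 7 members that fell with age in Control females and have an entry. The letters CCGGAAGT of GABPA are in 4.48% of members and 3.23% of all genes, TCAAGGTCA of the estrogen-related receptors in 1.49% and 0.422%, and AAGATGGC of YY1 in 1.49% and 1.83%. A match is a description of the letters and not a bound site.

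The lowest adjusted p of all members was that of Ndufs1, the largest core subunit of complex I, at chr1:63143596-63176833. It had 105.1, 137.2 and 171.9 CPM in 24-month Control livers, against 151.3, 187.8 and 262.8 CPM in 6-month ones, and only replicate 6 of the aged group lay inside the young range. The difference was -0.52 ± 0.12 (adjusted p = 0.00144 by edgeR's quasi-likelihood test). The accessory subunits Ndufb5, at -0.43 (adjusted p = 0.0122), and Ndufa6, at -0.44 (adjusted p = 0.0362), were the other members of complex I that fell. Among other core subunits Ndufv2 was at -0.37 (adjusted p = 0.0545), Ndufs3 at -0.22, Ndufv1 at -0.18, Ndufs7 at -0.09 and Ndufs8 at -0.03, with adjusted p of 0.142 or above for the last 4. Ndufa4, named for complex I and since placed in complex IV, was at -0.37 (adjusted p = 0.0825).

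In complex III the genes that fell were those of its redox and core subunits. Cyc1, the cytochrome c1 subunit, had 57.3, 72.8 and 130.3 CPM in aged Control livers against 93.3, 106.7 and 128.3 CPM in young ones, a difference of -0.38 ± 0.13 (adjusted p = 0.0213 by edgeR's quasi-likelihood test). Here 6 of the 8 aged livers lay below every young one and replicate 6 lay above them all. Uqcrc2, a core protein, was at -0.40 (adjusted p = 0.0243) and Uqcrfs1, the Rieske iron-sulfur protein, at -0.35 (adjusted p = 0.0459), while the core protein Uqcrc1 was at -0.22 (adjusted p = 0.214) and the small subunits Uqcrq and Uqcr11 had estimates of 0.14 and 0.06. In complex V, Atp5g3, a gene for the ring of the proton channel, fell by 0.36 (adjusted p = 0.0242). Atp5g1, another gene for that ring, was not called. Its levels were 91.5, 117.6 and 182.8 CPM in aged Control livers against 91.0, 131.1 and 173.1 CPM in young ones. The subunits Atp5a1 and Atp5b of the catalytic part were at -0.22 and -0.28 with adjusted p = 0.139 and 0.088. In complex IV Cox4i1 was at -0.07 and Cox5a at -0.23, with adjusted p = 0.749 and 0.18. Of the common forms of paired complex IV subunits, Cox7a2 was at -0.36, Cox7b at -0.28, Cox6b1 at -0.09, Cox8a at -0.06 and Cox6a1 at 0.15, and the smallest adjusted p among them was 0.0919, that of Cox7a2.

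The one member that was higher was Ndufa8, at chr2:36036326-36049406, with 45.1, 52.4 and 94.0 CPM in aged Control livers against 30.1, 46.6 and 57.1 CPM in young ones. The groups overlapped over most of their ranges, apart from replicate 6 above and 2 young livers below. The difference was 0.33 ± 0.12 (adjusted p = 0.0296 by edgeR's quasi-likelihood test), and without replicate 6 it was 0.18 with adjusted p = 0.149.

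**Figure D3:**
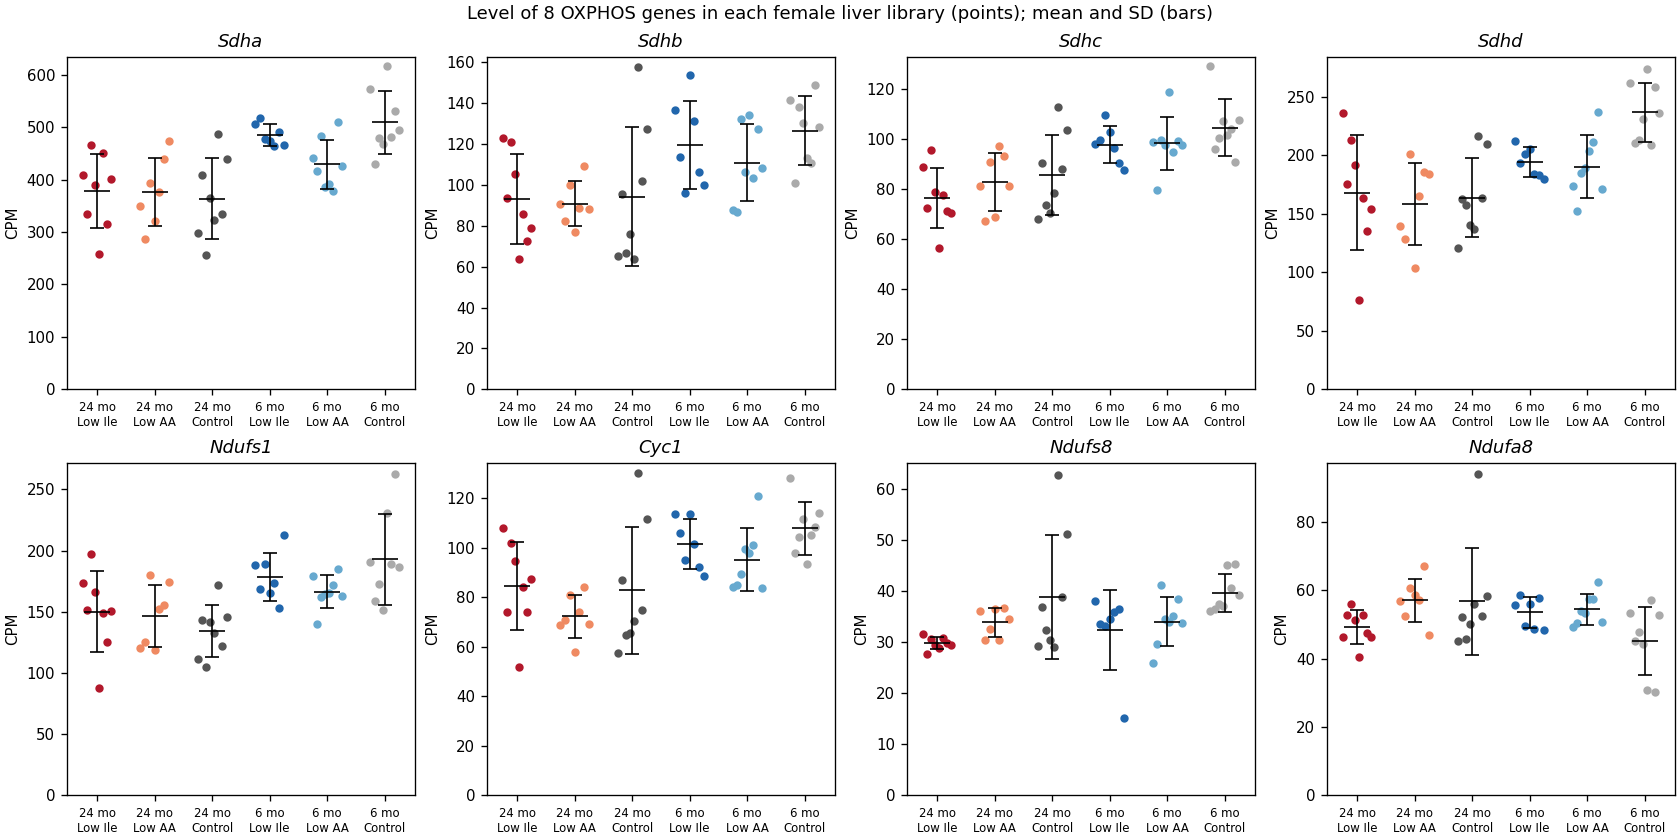
Level of 8 genes in CPM in each female liver library; points are libraries, bars the mean and SD, and the groups run from 24-month Low Isoleucine at the left to 6-month Control at the right. Sdhd in 24-month Control livers lies mostly below the 208.5 CPM of the lowest 6-month Control liver, while Ndufs8 shows a narrow band from 27.8 to 31.6 CPM in the 24-month Low Isoleucine livers.

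How many members fell depended strongly on single aged Control livers. Without replicate 6, 43 of the 73 members fell and 0 were higher, where 13.7% of all genes were lower, and the median was -0.34. Then 21 of 35 members fell in complex I, 4 of 4 in complex II, 4 of 8 in complex III, 4 of 11 in complex IV and 10 of 15 in complex V, and 11 of the 12 calls made with all libraries were among them. Sdha was then at -0.56 (adjusted p = 0.000361 by edgeR's quasi-likelihood test), Ndufb3, an accessory subunit of complex I, at -0.60 (adjusted p = 0.000401), and Atp5b at -0.36 (adjusted p = 0.0231). Without replicate 1 or without replicate 3 of the aged group, the members called numbered 5, and without replicate 1 or replicate 7 of the young Control group, 7. The share of all genes called is not given for these fits, so their counts cannot be set against it. Sdha, Sdhd and Ndufs1 passed the test in each of these fits. The count was 35 when a trend on exon length was removed from each library and 3 when only the 2 groups compared entered the fit. Over all genes these fits called 3879 of 12617 and 2140 of 11937, in either direction. With libraries that share a title number summed, 12 members fell, 11 of them among the 12 called with separate libraries, where 8.82% of all genes were lower, and Ndufa8, at 0.19 (adjusted p = 0.171), was no longer called.

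**Figure D4:**
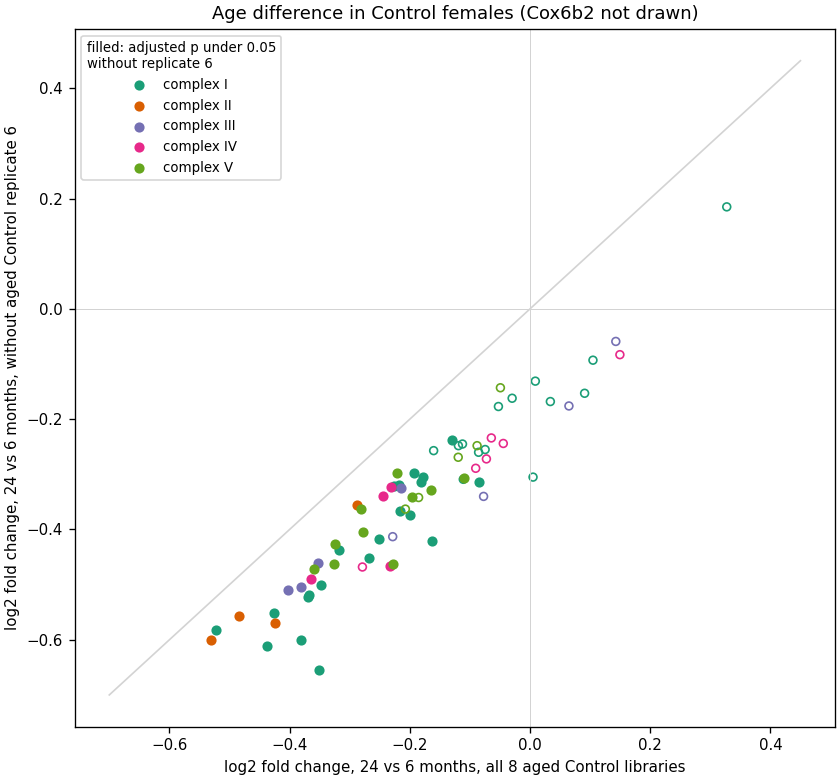
Log2 fold changes of 72 nuclear oxidative phosphorylation genes between 24 and 6 months in Control females, with all 8 aged libraries on the horizontal axis and without replicate 6 of the aged group on the vertical axis; the diagonal marks equal values and filled points have an adjusted p under 0.05 without that library. Every gene lies below the diagonal, and the median is -0.34 without the library and -0.21 with it.

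Between the ages on Low Isoleucine 2 of 73 members fell and 0 rose, where 2.44% of all genes fell and 4.9% rose. Both were genes of complex II, Sdhc at -0.35 ± 0.10 (adjusted p = 0.0267 by edgeR's quasi-likelihood test) and Sdha at -0.36 ± 0.12 (adjusted p = 0.0487). Sdhc had 56.4, 75.2 and 95.8 CPM at 24 months against 87.7, 98.1 and 109.6 CPM at 6 months, and 6 of the 8 aged livers lay below every young one. Sdha had 257.9, 395.5 and 466.3 CPM at 24 months against 464.8, 478.1 and 518.2 CPM at 6 months, so that only the highest aged liver reached the young range. The members' median was -0.22 against 0.01 over all genes, with 69 of 73 estimates below 0. Without replicate 2, 5 or 7 of the aged group, or without replicate 4 of the young one, 0 members were called, and without replicate 3 of the aged group 5 were. The share of all genes called is not given for these fits either. When the libraries of a group that share a title number were summed to 1 unit, 0 were called, with Sdhc at -0.39 (adjusted p = 0.0661) and Sdha at -0.37 (adjusted p = 0.12).

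On the Low Amino Acid diet 0 of 73 members were called between the ages, where 0.483% of all genes were lower and 1.13% higher, and 5 were lower at an unadjusted p under 0.05. Such a p was found for 1741 of all 12617 genes, in either direction. The median was -0.14 against 0.01 over all genes. The lowest estimate but that of Cox6b2 was Cyc1 at -0.40, with 58.1, 70.9 and 84.0 CPM at 24 months and 83.9, 93.5 and 121.0 CPM at 6 months, ranges that just touched (adjusted p = 0.12 by edgeR's quasi-likelihood test, and 0.0301 to 0.399 over the alternatives). The 4 genes of complex II had a median of -0.26 on Low Amino Acid, beside -0.36 on Low Isoleucine and -0.45 on Control. The interaction tests above bear on whether these age differences differed between diets, and they gave no call.

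Other mitochondrial genes were read from lists in the same comparison of aged with young Control livers. Of the citric acid cycle and pyruvate dehydrogenase genes, 9 of 16 fell and 0 rose, with a median of -0.33, where 11.4% of all genes were lower and 16.7% higher. They included Suclg1, a subunit of succinyl-CoA ligase, at -0.55 (adjusted p = 0.000848 by edgeR's quasi-likelihood test) and Pdha1, of pyruvate dehydrogenase, at -0.48 (adjusted p = 0.00187). Of the assembly factors, which help to build the complexes, 7 of 35 fell and 0 rose, against the same 11.4% and 16.7%, with a median of -0.21, among them Ndufaf4 for complex I at -0.49 (adjusted p = 0.0183) and Sdhaf3 for complex II at -0.35 (adjusted p = 0.0259). Of the mitochondrial ribosomal protein genes, 4 of 76 fell and 3 rose, with a median of -0.06, so that both counts lie under the share over all genes.

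Among the regulators of mitochondrial genes, 4 of 12 fell in aged Control livers, where 11.4% of all genes were lower. Ppargc1a and Ppargc1b, coactivators known for raising the expression of respiratory genes, were at -0.77 ± 0.23 (adjusted p = 0.01 by edgeR's quasi-likelihood test) and -0.90 ± 0.24 (adjusted p = 0.00523). Tfb2m, needed for transcription of mitochondrial DNA, was at -0.36 (adjusted p = 0.0179) and Yy1, a zinc finger factor, at -0.26 (adjusted p = 0.00943). Nrf1, a factor that binds many promoters of respiratory genes, was at 0.19 (adjusted p = 0.103), and Esrra, an orphan nuclear receptor with many targets among these genes, at -0.26 (adjusted p = 0.43). On Low Isoleucine between the ages 0 of 12 regulators were called, where 2.44% of all genes were lower and 4.9% higher, with Ppargc1a at -0.70 (adjusted p = 0.0553). On Low Isoleucine against Control at 24 months, 1 of 16 citric acid cycle and pyruvate dehydrogenase genes was called. Of all genes 6.48% were called there, so that count is near the background. The gene was Dlst, of the oxoglutarate dehydrogenase complex, higher at 0.36 (adjusted p = 0.0341 by edgeR's quasi-likelihood test).

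Markers of blood-borne and resident immune cells differed between the ages in the same livers. In aged against young Control livers 8 of 8 neutrophil, 8 of 10 Kupffer cell and 6 of 7 lymphocyte markers rose, 11 of 11 acute phase genes rose, and 1 of 6 hepatocyte markers fell, where 16.7% of all genes were higher and 11.4% lower. The hepatocyte markers had a median of -0.44, further below 0 than the members' -0.21. Summed neutrophil markers ran from 5.69 to 689 CPM in aged Control livers and from 1.06 to 4.80 CPM in young ones, and summed acute phase genes from 20510 to 175300 CPM in aged and from 15610 to 24770 CPM in young ones. On Low Isoleucine 6 of 7 lymphocyte, 2 of 10 Kupffer cell, 0 of 8 neutrophil and 0 of 11 acute phase genes rose between the ages. There 1 of 6 hepatocyte markers fell, with a hepatocyte median of -0.30, where 4.9% of all genes were higher and 2.44% lower. With Low Amino Acid 5 of 8 neutrophil, 0 of 10 Kupffer cell, 0 of 7 lymphocyte and 6 of 11 acute phase genes rose between the ages. The neutrophil rise lay in replicates 2 and 4 of the aged group, with means of 4.49 and 3.84 log2 CPM. The other aged livers lay at -0.97 or below, and the young ones between -2.13 and -1.09. Those 2 replicates also had the highest acute phase means of the aged group, 10.54 and 12.39 log2 CPM. Of the hepatocyte markers 0 of 6 were called and their median was -0.20, where 1.13% of all genes were higher and 0.483% lower. In the 24-month comparison of Low Isoleucine with Control 9 of 11 acute phase genes and 3 of 8 neutrophil markers fell. There 0 of 10 Kupffer cell, 0 of 7 lymphocyte and 0 of 6 hepatocyte markers were called, where 6.48% of all genes were called. The part of these markers in the members' values was not tested. Among aged Control livers, replicates 1 and 5 had the highest acute phase means, 12.19 and 12.76 log2 CPM, and replicate 6 the lowest, 8.36. Without these 3 livers 19 of 73 members fell, 0 were higher and the median was -0.27. That fit called 2713 of 12720 genes, in either direction. Without replicate 6 alone more members fell and the median lay further below 0, as given above.

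The authors' deposited tables give fold changes with adjusted p-values for all 81 members in females and for 80 in males. For female diets they list 0 members past an adjusted p of 0.05, where the tables call 0.0116% of all genes with Low Amino Acid at 6 months and 5.53% at 24 months, and 0.0931% with Low Isoleucine at 6 months and 9.24% at 24 months. Between 24 and 6 months in Control females the deposited table has 14 of 81 lower and 1 higher, where 11.1% of all listed genes are lower and 12.4% higher. By complex the authors' deposited table has all 4 members of complex II lower, 4 of 38 of complex I, 3 of 9 of complex III, 0 of 13 of complex IV and 3 of 17 of complex V. Of the genes without counts, the authors' deposited table puts Uqcrh, the hinge protein of complex III, at -0.36 and Atp5md, a small subunit of complex V, at -0.34 in that comparison, and Cox5b, of complex IV, at -0.18. Between 24 and 6 months on Low Isoleucine the deposited female table lists 0 members called, where 0.739% of all genes are called. The header of that column names no ages. In both sexes its values were read as 24 against 6 months because they equal other deposited columns combined, to within 4.8e-08. Going by a fit of the deposited fold changes on library levels, 5 female libraries do not enter the female table, among them the 1 left out here.

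For males the authors' deposited table is the only source used here, with no values per liver. In young males 22 of 80 members are lower on Low Amino Acid, where 11% of all genes are lower and 5.34% higher, and 23 of 80 on Low Isoleucine, where 11.7% are lower and 9.35% higher, and 0 are higher on either diet. Both comparisons share the Control males. In the authors' deposited table for Low Isoleucine 13 of 38 members of complex I are lower, 0 of 4 of complex II, 4 of 9 of complex III, 2 of 12 of complex IV and 4 of 17 of complex V. The lowest is Uqcrq, a small subunit of complex III, at -2.10 on Low Isoleucine and -1.85 on Low Amino Acid in the deposited tables, while Sdha is at 0.08 and -0.12.

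Within the young males the deposited fold changes fell with the GC content of the gene. Over 80 members Spearman's rho was -0.538 on Low Isoleucine and -0.529 on Low Amino Acid, and over 17699 genes it was -0.561 and -0.569 on the same diets. In young females the deposited values gave 0.15 on Low Isoleucine and 0.260 on Low Amino Acid over 81 members, and -0.034 and 0.189 over 17137 genes. The points are genes of the same libraries and are not independent. The part of base composition in the male values was not tested. A trend of that kind also ran through single female libraries, where rho between a member's deviation from its mean and its GC content lay between -0.465 and 0.415 over 73 members. Replicate 8 of the 6-month Low Isoleucine females had -0.421, and it held the lowest levels of its group for Uqcrq at 9.70 CPM (median 55.2), Uqcr11 at 18.3 CPM (median 72.8) and Ndufs7 at 16.6 CPM (median 42.0), genes that are also among the lowest in young males on either restricted diet. Their GC content was 50.2% for Uqcrq, 59.8% for Uqcr11 and 59.6% for Ndufs7, beside a median of 50.3% over the members tested.

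**Figure D5:**
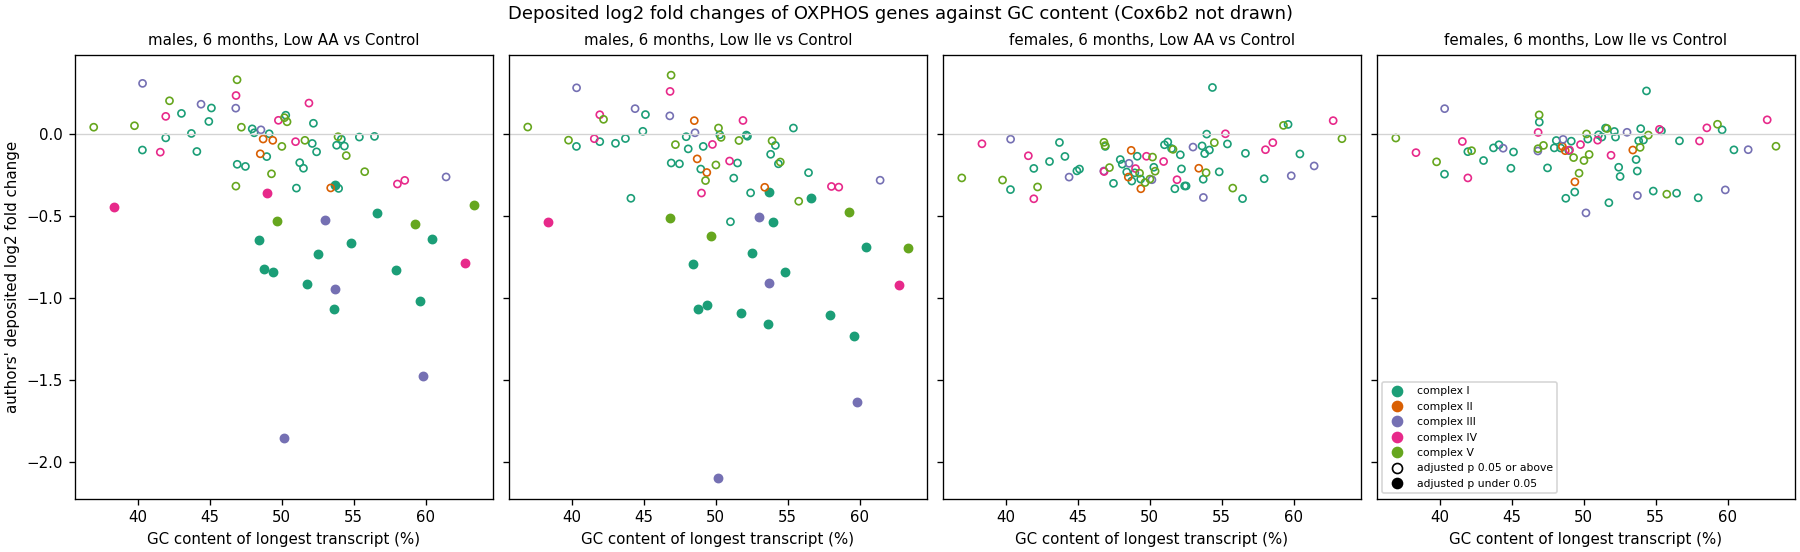
The authors' deposited log2 fold changes of nuclear oxidative phosphorylation genes against the GC content of the longest transcript in percent, at 6 months, for males on the left and females on the right; points are genes coloured by complex, filled where the deposited adjusted p is under 0.05. In males the filled genes lie mostly at higher GC content (rho -0.538 on Low Isoleucine over 80 genes), and no gene is filled in females.

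At 24 months the authors' deposited table lists 0 members called in males on either diet, where 0.0676% of all genes are called with Low Isoleucine and 0.0563% with Low Amino Acid. The members' median is 0.14 on Low Isoleucine, with 70 of 80 above 0, against 0.00 over all genes, and 0.04 on Low Amino Acid against 0.03. Between 24 and 6 months the deposited male tables cover Control and Low Isoleucine. In Control males 12 of 80 members are lower and 1 higher, where 11.7% of all genes are lower and 8.33% higher, with 5 in complex I, 0 in complex II, 4 in complex III, 2 in complex IV and 1 in complex V. In Low Isoleucine males 17 of 80 members are higher and 0 lower, where 3.01% of all genes are higher and 4.07% lower, led by Uqcrq at 1.23 and Uqcr11 at 1.10 in the deposited table. The young Low Isoleucine males enter that comparison as well as the diet comparison at 6 months, so a low level in them lowers the one and raises the other. Between the ages, the correlation of the male log2 fold change with GC content had a rho of 0.304 over 80 members in Low Isoleucine males and -0.471 in Control males, and 0.275 and -0.341 over all genes. The part of GC content in the calls was not tested. The difference between the diets' age effects in males was not tested here.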

How the data were processed

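RNA of fasted livers was sequenced as stranded libraries with selection of polyadenylated RNA, and the data of 2 lanes were merged per sample, per the labels' protocols. The submitters' processing notes name R 3.4.3, edgeR, limma and the build GRCm38.p5, and the sources used here name neither the aligner nor the annotation. The authors deposited estimated counts per gene from RSEM, going by the table's name, and the values are not normalized, and, for each sex, their own comparisons as log2 fold changes with p-values and adjusted p-values.

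Of 51912 lines of the count table, 17275 are filled under all columns and were used, for females only: their fold changes correlated with the deposited ones at r = 0.877 to 0.914, those of the male columns at r = -0.009 to 0.015. Of these lines 17250 matched GENCODE M21, which gave positions and exon lengths. Counts were rounded, filtered (filterByExpr), scaled by TMM and fitted with edgeR 4.0.16 (R 4.3.3, limma 3.58.1) in a quasi-likelihood test in which each group has its mean, over 46 libraries, with Benjamini-Hochberg adjustment over 12617 genes and a call at 0.05. The standard error (SE) was recovered from the fold change and its F, and 95% intervals are 1.96 SE wide to either side. Levels are CPM after TMM, given as lowest, median and highest value, and log2 CPM uses a prior count of 2. The fit was tested on simulated data.

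Genes with processed copies elsewhere in the genome may share reads with them, and their estimated counts are uncertain to that extent. The members, lists and libraries were chosen with earlier results of these data known. Named whatever their values were the core subunits, complex II and the tissue isoforms, and named by value every member called in edgeR and the lowest or highest of a complex; Ndufb3, Ndufa2, Uqcrq and Uqcr11 also appear as examples chosen after their values were seen. Some genes under this rule are not reported here. Alternatives were DESeq2 1.42.0, other size factors, no filter, the compared groups alone, trends on exon length or GC removed, other sets of libraries, libraries with a shared title number summed, and each library left out. The GC trend, the sums and 2 of the library sets were added after the data were seen. Tables were handled in Python 3.11.15 (numpy 2.4.6, pandas 2.3.3). The libraries were fitted as separate animals, although some titles in a group share a number that the labels do not explain, and the p-values measure the spread between these livers.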

Additional observations from a re-analysis of the deposited data

Results flagged for a closer look

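Within groups, the mean of each complex and the levels of the 12 members that passed the test in some comparison were examined for a single liver far from the rest, in 108 sets of values. A liver was marked in 9 of them, and chance marks about 1 set in 20.

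Among livers on Low Isoleucine at 24 months, replicate 5, the library with the fewest counts, was marked as lowest 5 times. That library also had the highest means of acute phase, neutrophil and Kupffer cell genes in its group. It had 5.98 log2 CPM for complex III (next 6.42), 6.14 for complex V (next 6.71), 83.2 CPM for Atp5g3 (next 123.3), 34.7 CPM for Ndufa6 (next 53.3) and 57.7 CPM for Uqcrfs1 (next 101.2). Replicate 6 of the 24-month Control group was marked as highest among complex means for complex IV, at 7.13 log2 CPM (next 6.33), and for Ndufa8, at 94.0 CPM (next 58.3). At 6 months, replicate 8 on Low Isoleucine was lowest for complex III, at 5.97 log2 CPM (next 6.64), and replicate 2 on Low Amino Acid was lowest for Atp5g3, at 118.1 CPM (next 143.3).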

How the results depend on the processing

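The direction of the 23 gene results followed and the sign of each member median were the same under other size factors, DESeq2 and no filter. Medians of the 24-month diet comparisons turned to above 0 without replicate 6 of the aged Control group, and on Low Isoleucine also with the exon length trend removed (0.032). With 1 library left out they ran from -0.166 to 0.045 on Low Isoleucine and from -0.153 to 0.04 on Low Amino Acid. For the age comparison in Control females, leaving out 1 library at a time gave 5 to 43 calls and medians of -0.34 to -0.146, and the count was 3 with only the groups compared, 35 with the exon length trend removed, 19 with the GC trend removed and 19 without 3 aged Control livers. In that order, genes called in either direction were 2140 of 11937, 3879 of 12617, 3898 of 12617 and 2713 of 12720. For fits with 1 library left out, here and below, the genes called are not given. The exception is the age comparison without replicate 6 of the aged Control group, where 13.7% of all genes were lower. For age on Low Isoleucine the member count was 0 to 5 when single libraries were dropped, 1 without the filter, 0 with only the groups compared, 1 with the library left out elsewhere, 6 with the exon length trend removed, 0 with only the libraries of the deposited table, 0 with libraries of a shared title number summed and 4 without 3 aged Control livers. In that order, without the filter first, genes called were 843 of 16927, 374 of 11969, 1120 of 12623 and 1224 of 12617. The remaining fits gave 119 of 12643, 293 of 12771 and 1447 of 12720. For age on Low Amino Acid the member count was 1 with only the groups compared and 1 without 3 aged Control livers, beside 330 of 12054 and 341 of 12720 genes. For Low Isoleucine at 24 months the member count was 1 by DESeq2, beside 1076 of 12617 genes, and 0 to 1 when single libraries were dropped. The other comparisons gave 0 members throughout, although their calls over all genes varied. With only the libraries of the deposited table, Low Amino Acid against Control at 24 months called 1473 of 12643 genes, beside 94 of 12617 in the main fit. The Low Amino Acid interaction called 521 of 12643 there, beside 0 of 12617. The cause of these shifts was not tested. No paired analysis was possible because the labels give no replicate numbers that the groups share. Precision is lowest for Cox6b2, the member with the widest intervals.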
